A study of Mus musculus with 6 samples.

Results

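The cytoplasmic ribosomal protein genes were examined, which encode the proteins of the small and large subunits of the cytosolic ribosome. Members were the protein-coding genes whose GENCODE symbol is Rpl or Rps with a number and an optional ending, together with Rpsa, Rplp0, Rplp1, Rplp2 and Fau. Pseudogene symbols and the Rps6k kinases were left out. The rule found 82 of the 49585 gene IDs in the table, 32 of the small and 50 of the large subunit. Of the 82, 80 had enough counts to be tested, among 15812 genes tested in all, and the other two were the paralogs Rpl10l and Rpl39l. The rule used names and no measured value.

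Their mRNA was counted by RNA-seq in a mouse model of acute myeloid leukemia made by the KMT2A-MLLT3 fusion, which joins a chromatin regulator to a protein that binds the histone methyltransferase DOT1L. Bone marrow taken from mice with the disease received DOT1L by transduction, and low and high populations were sorted and collected 3 days later. Each of K3117 and K3174 gave 1 library labelled NT, 1 labelled DOT1L Low and 1 labelled DOT1L High. The K numbers are treated as 2 leukemias, which the titles do not state. All groups carry KMT2A-MLLT3, all cells were grown in medium with mouse IL3, IL6 and SCF, and the labels do not spell out NT or give a promoter, vector or mouse strain. Total counts were between 22908445 and 33265848 per library. Levels are in CPM, counts scaled to a common TMM library size. A gene is called at a Benjamini-Hochberg adjusted p under 0.05 in edgeR's quasi-likelihood test, in which the leukemia is a block.

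Ribosomal proteins are made in nearly equal amounts, and their mRNAs are among the most abundant of a growing cell. Most of these mRNAs start with a run of pyrimidines, the terminal oligopyrimidine or TOP motif, through which mTORC1 and LARP1 control their translation and stability. Loss of 1 copy of many of these genes causes Diamond-Blackfan anemia, and loss of RPS14 is a feature of the 5q- syndrome, so blood precursors are known to be sensitive to their dose.

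The start sites below show the TOP run in members whose behaviour differed. Each line is 30 bases of the gene's strand in the RefSeq promoter table (GRCm38.p6), 15 before the annotated start and 15 from it, with the unbroken run of C and T over the start in capitals. Rpl35 was among the lowest members in High against NT and Rpl34 among the highest, and both carry long runs, of 18 and 20 bases, of which the window shows the last 18 for Rpl34. Rpl27a, Rpl15 and Fau are further examples, and the annotated starts of Rpl41, Rps26 and the muscle paralog Rpl3l carry no such run.
Rpl35 (chr2:39005117-39005146, minus strand): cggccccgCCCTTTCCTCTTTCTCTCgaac
Rpl34 (chr3:130730323-130730352, minus strand): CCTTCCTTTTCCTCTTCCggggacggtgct
Rpl27a (chr7:109519180-109519209, plus strand): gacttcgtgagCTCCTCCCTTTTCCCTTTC
Rpl15 (chr14:18270972-18271001, minus strand): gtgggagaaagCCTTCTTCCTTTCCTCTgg
Fau (chr19:6057932-6057961, plus strand): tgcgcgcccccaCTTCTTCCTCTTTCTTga
Rpl41 (chr10:128549154-128549183, minus strand): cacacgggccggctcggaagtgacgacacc
Rps26 (chr10:128626492-128626521, minus strand): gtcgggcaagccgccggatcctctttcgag
Rpl3l (chr17:24727811-24727840, plus strand): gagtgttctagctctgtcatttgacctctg

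The RefSeq table held 62 of the 82 members. A run of at least 5 C or T letters over the annotated start was found in 21 of them (33.9%), against 11.8% of the 27025 genes of the table. CTTTCC was present on either strand of the promoter, from 250 bases before to 50 after the start, in 53.2% of members and 29.3% of all genes. ACTTCCG was present in 35.5% against 7.20%, AAGATGGC in 9.68% against 3.19%, and GGGCGG in 61.3% against 38.2%. A single annotated start was read for most genes, so a run that begins a few bases away is missed. The 21 members with a run had a median log2 fold change of -0.09 in High against NT and -0.13 in Low against NT, and the 39 tested members without one had -0.10 in both.

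The libraries matched their labelled cell type. Ptprc, the leukocyte marker CD45, was between 246.4 and 341.3 CPM, and Spi1, Hoxa9, Meis1 and Kit were present in all 6 libraries. Of the T cell markers Cd3e and Cd8a were at 0 (6 markers summed to between 0.311 and 2.14 CPM), and of the B cell markers Ms4a1 was at 0 (6 summed to between 10.0 and 17.3 CPM, mostly Cd79b). The 6 erythroid markers summed to between 1.44 and 18.2 CPM, and the stroma and endothelium markers to between 129 and 230 CPM, mostly Pecam1, with Col1a2 at 0. Dot1l counts did not follow the order of the labels (127.8, 183.7 and 149.8 CPM in K3117 NT, Low and High, and 158.0, 152.0 and 136.4 CPM in K3174), so groups are called by their labels. Whether counts on the mouse gene include the transduced DOT1L is not known, so they cannot give its level.

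As a group, the ribosomal protein genes took a slightly smaller part of the counts in the libraries labelled Low and High than in NT, in both leukemias. Their share of all gene counts was 5.86% in K3117 NT, 5.52% in K3117 Low and 5.40% in K3117 High. In K3174 it was 5.84% in NT, 5.23% in Low and 5.09% in High. The 95% Wilson intervals of these shares were at most 0.0096 percentage points to either side, which covers counting error only. Both NT libraries were above all 4 others, and the mean difference of High minus NT was -0.608 percentage points. With 2 libraries against 2, an exact two-sided permutation test cannot go below a p of 0.333, so no test was made of the share. In bulk RNA, fewer cells of a type and less RNA per cell cannot be told apart.

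**Figure D1:**
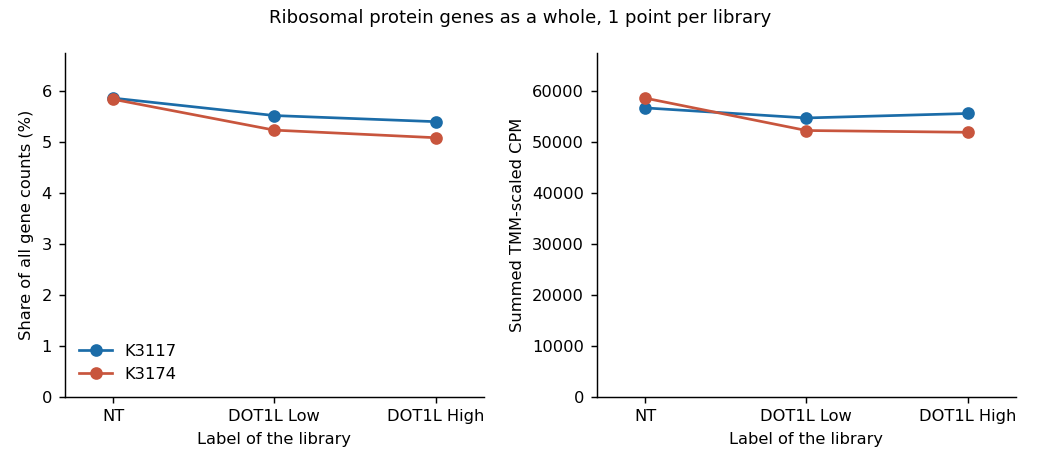
Ribosomal protein genes summed in each library, as a percentage of all gene counts (left) and as TMM-scaled CPM (right), with 1 point per library and lines joining libraries of 1 leukemia. The share is 5.86% in NT and 5.40% in High in K3117, and 5.84% and 5.09% in K3174, while on the TMM scale K3117 stays between 54637 and 56607 CPM.

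A share is relative to the other genes, and the TMM scale gave a different size in the 2 leukemias. On that scale the 82 genes summed to 56607, 54637 and 55513 CPM in K3117 NT, Low and High, and to 58527, 52177 and 51829 CPM in K3174. The change from NT was -1.93% in K3117 High and -11.4% in K3174 High, and -3.48% and -10.8% in Low. High lay 1.60% above Low in K3117 under TMM and 2.05% above it with DESeq2 size factors. The difference was -2.17% with library sizes alone and -2.81% with upper quartile factors, so the order of Low and High in K3117 depends on the scaling. In K3174 it was below Low under all 4 scalings, with changes from -0.669% to -5.19%. Under all 4 scalings and in both leukemias, Low and High were below NT. Late neutrophil genes moved with the labels. Their 11 markers summed to 32.5, 168 and 1732 CPM in K3117 NT, Low and High and to 152, 1385 and 7258 CPM in K3174, and 9 of 10 tested rose in High and in Low against NT. With these genes and all non-coding and mitochondrially encoded genes taken out of the denominator, High minus NT was -0.600 percentage points.

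Gene by gene, differences from NT were small and mostly in 1 direction, and almost none passed the test. Of 80 members, 74 had a fitted fold change below 1 in High against NT, against 51.4% of all genes tested, and all 80 did in Low against NT, against 52.7%. The median log2 fold change of the members was -0.10 in High and -0.12 in Low, and that of all genes tested was -0.01 in both. The size rested on single libraries. The median in High was -0.058 without the K3174 NT library, -0.051 without K3174 High, -0.15 without K3117 NT and -0.17 without K3117 High, and without K3174 NT 57 members were below 1 in High and 55 in Low. Low and High are set against the same NT libraries, and all members share the 6 libraries, so their common direction is not 80 separate observations. Nothing in the labels says that the libraries came from separate mice, and if they did not, the p-values cover no more than the spread among these libraries. In High against NT 1 of the 80 was called, the muscle paralog Rpl3l, which was lower, where 17.3% of all genes were called in either direction and 7.32% lower. In Low against NT none was called (background 3.34%), with 2, Rpl3l and Rps27, at an unadjusted p under 0.05 and none by DESeq2. The average of both DOT1L labels against NT called Rpl3l, 1 of 80 against 12.5% of all genes, and all 80 members were below NT in it, against 52.4%. High against Low called none (background 5.48%), with none at an unadjusted p under 0.05 and none by DESeq2, and 33 of the 80 members were lower in High, against 49.7% of all genes.

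**Figure D2:**
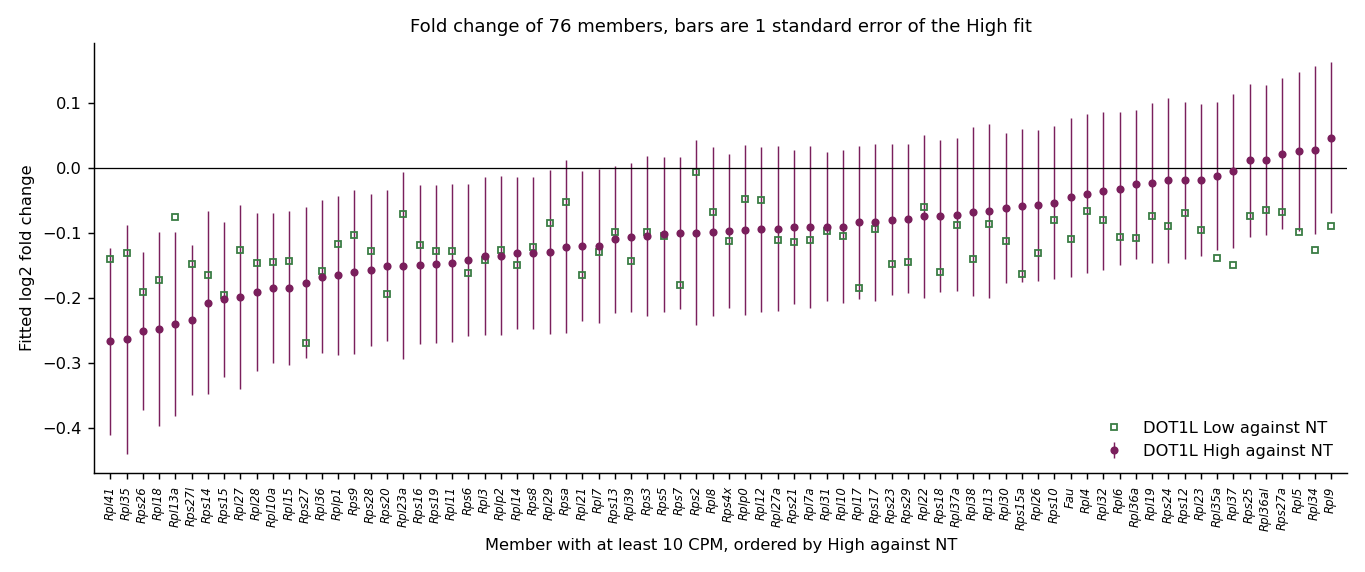
Fitted log2 fold change of 76 of the 78 members with at least 10 CPM, ordered by High against NT (filled points, bars are 1 SE), with Low against NT as open squares. Values of High shown run from -0.27 in Rpl41 to 0.05 in Rpl9, and all values of Low lie below 0.

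The small and large subunits had similar medians. The 32 small subunit genes had a median log2 fold change of -0.10 in High and -0.12 in Low, with 30 and 32 below 0. The 48 tested large subunit genes had -0.09 and -0.11, with 44 and 48 below 0. The 23 genes of Diamond-Blackfan anemia and the 5q- syndrome had -0.10 and -0.13. None was called in either comparison, against 17.3% of all genes in High and 3.34% in Low. Of them Rps27 had an unadjusted p under 0.05 in Low against NT.

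Whether libraries separated by label differed from member to member. Both High libraries lay below both NT libraries for 38 of 80 members, against 25.3% of all genes, and both Low libraries lay below both NT libraries for 46, against 15.8%. Both High libraries lay above both NT libraries for 1 member, Rpl9, against 25.3% of all genes. The order NT over Low over High in both leukemias was seen for 7 members, against 11% of all genes, among them Rpl10a, Rpl13a, Rpl15, Rpl28, Rplp1 and Rps26. In High, 55 members were lower than NT in K3117 (51.4% of all genes) and 72 in K3174 (50.2%), with 49 lower in both (33.6%) and 2, Rpl9 and Rps25, higher in both (32.1%). In Low, 59 were lower in K3117 (50.6%) and 69 in K3174 (51.6%), with 48 lower in both (27.4%). Set against Low, High was lower for 26 members in K3117 (50.1% of all genes) and 48 in K3174 (48.6%), and both High libraries lay above both Low libraries for 14 (19.1%). On the TMM scale the K3174 libraries therefore hold more of the members below NT than K3117 does. In Low this was so under all 4 scalings, but in High it depends on the scaling. DESeq2 size factors gave 54 members lower in K3117 High and 73 in K3174 High. Library sizes alone gave 77 and 73, and upper quartile factors 77 in each.

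Rpl13a, of the large subunit, was among these 7 members. It was at 33.3, 32.5 and 31.4 CPM in K3117 and 31.2, 28.8 and 23.6 CPM in K3174 (-0.24 ± 0.14, adjusted p = 0.31). Pseudogenes matched to it by sequence held 55.4% of the combined counts, so its order over the libraries is uncertain.

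Rpl3l, a paralog of Rpl3 known from heart and skeletal muscle (chromosome 17, 24727820 to 24736143, plus strand), was the called member, at a level near the floor of detection. It had 183, 40 and 17 counts in K3117 NT, Low and High and 31, 22 and 30 counts in K3174, which is 5.50, 1.28 and 0.755 CPM and 1.36, 0.659 and 1.01 CPM. One library, K3117 NT, stands well above the other 5. K3174 NT, at 1.36 CPM, lies only just above the highest Low or High library, K3117 Low at 1.28 CPM. The log2 fold change was -1.69 ± 0.48 in High (adjusted p = 0.032), -1.72 ± 0.46 in Low (adjusted p = 0.075) and -1.70 for their mean (adjusted p = 0.013). Without the K3117 NT library High against NT was -0.74 (adjusted p = 0.32) and the mean -0.70 (adjusted p = 0.34). Without the replicate block they were -1.96 (adjusted p = 0.20) and -1.89 (adjusted p = 0.19), and High against NT also missed the threshold without the K3117 High library (-0.72, adjusted p = 0.39) or with a GC content trend removed (adjusted p = 0.067). Rpl3l starts 5890 bases after the end of Rps2 on the same strand, and Rps2 was between 1690 and 2094 CPM. Whether the counts of these neighbours are related was not tested. In 4 other fits, with no filter on low counts (adjusted p = 2.8e-05), without the K3174 NT library (0.00030) or without either High library (0.00010 and 0.00012), Low against NT passed too.

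Rpl41, Rpl35 and Rps26 were among the members at the low end of High against NT. Rpl35, of the large subunit and, with at least 10 CPM, the most variable member by SD of log2 CPM over the 6 libraries (0.235), lies on chromosome 2 (39001580 to 39005624, minus strand). It was at 137.3, 171.9 and 145.6 CPM in K3117 NT, Low and High, and at 189.2, 127.9 and 127.4 CPM in K3174. The groups overlap, with the highest and the lowest library both in K3174. Its log2 CPM difference of High minus NT was 0.09 in K3117 and -0.57 in K3174. The fitted value over both was -0.26 ± 0.18 (adjusted p = 0.38). Rpl41, the smallest ribosomal protein, gave -0.27 ± 0.14 (adjusted p = 0.26), and Rps26 -0.25 ± 0.12 (adjusted p = 0.21). Rps26 contacts mRNA at the exit channel of the small subunit. Its CPM was 542.6, 509.9 and 504.7 in K3117 and 578.5, 474.4 and 440.2 in K3174, with both NT libraries above the rest. Leaving out the K3117 NT library makes K3174 the only source of the NT level. In that fit Rpl41, Rpl35, Rps26, Rpl18, Rpl27 and Rps14 had log2 fold changes in High against NT from -0.63 to -0.37. The median of all 80 members in it was -0.15.

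At the other end, Rpl9, Rpl34, Rpl5, Rps27a and Rpl36al had the highest fold changes in High against NT, from 0.01 to 0.05, and none passed (smallest adjusted p = 0.85). Rpl9 was at 707.7, 645.8 and 730.7 CPM in K3117 and 705.5, 683.1 and 729.9 CPM in K3174, with both High libraries above NT by about 3% (fold 1.03). Rps27a, made as a fusion with ubiquitin, was at 696.7, 636.2 and 681.2 CPM in K3117 and 653.5, 651.8 and 690.4 CPM in K3174. All 5 had fold changes below 1 with library sizes alone or upper quartile factors.

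Among members with at least 10 CPM, Rps27, a small subunit protein with a zinc finger, was the lowest in Low against NT. It was at 276.9, 213.6 and 244.8 CPM in K3117 NT, Low and High and at 247.1, 220.2 and 219.0 CPM in K3174. Both Low libraries were below both NT libraries. The log2 fold change was -0.27 ± 0.12 (adjusted p = 0.34). Rps15 (-0.19), Rps20 (-0.19) and Rps26 (-0.19) were also among the lowest, with adjusted p from 0.60 to 0.64. The highest of these members were Rps2 (-0.01), Rplp0 (-0.05), Rpl12 (-0.05), Rpsa (-0.05) and Rpl22 (-0.06).

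Some members lay on opposite sides of NT in the 2 leukemias, in Low (31 of 78 with at least 10 CPM) and in High (28 of 78). Rps2, a small subunit protein at the mRNA entry channel (chromosome 17, 24718116 to 24721929, plus strand), was at 1717, 2029 and 1872 CPM in K3117 NT, Low and High and at 2094, 1771 and 1690 CPM in K3174. Low was above NT in K3117 by 0.24 on the log2 scale, and below it in K3174 by the same amount (-0.24). Rpl22 went the other way, at 423.0, 355.7 and 384.0 CPM in K3117 and 370.5, 404.8 and 369.8 CPM in K3174. Of the 78 members with at least 10 CPM, 21 were higher in K3117 Low and lower in K3174 Low, against 29.6% of 8738 other genes with at least 10 CPM, and 10 were the reverse, against 21.5%. In Low, opposite signs were thus no more frequent among the members than among other genes. In High, 23 of the 78 were higher in K3117 and lower in K3174, against 20.5% of the other genes. The reverse was seen for 5, against 11.6%.

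Across these 78 members, the Low minus NT difference of K3117 and that of K3174, which share no library, had a Pearson correlation of -0.79 (Spearman -0.83). Over the 8738 other genes the correlation was 0.51 (Spearman 0.12). For High minus NT it was -0.06 over the members (Spearman -0.09) and 0.82 over the other genes (Spearman 0.61). These are descriptions across genes that share the 6 libraries, their depth and their scaling, and genes are not independent replicates. Rpl35 stood at one end of the relation in Low (0.32 in K3117 and -0.57 in K3174) and Rpl34 near the other (-0.33 and 0.07).

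**Figure D3:**
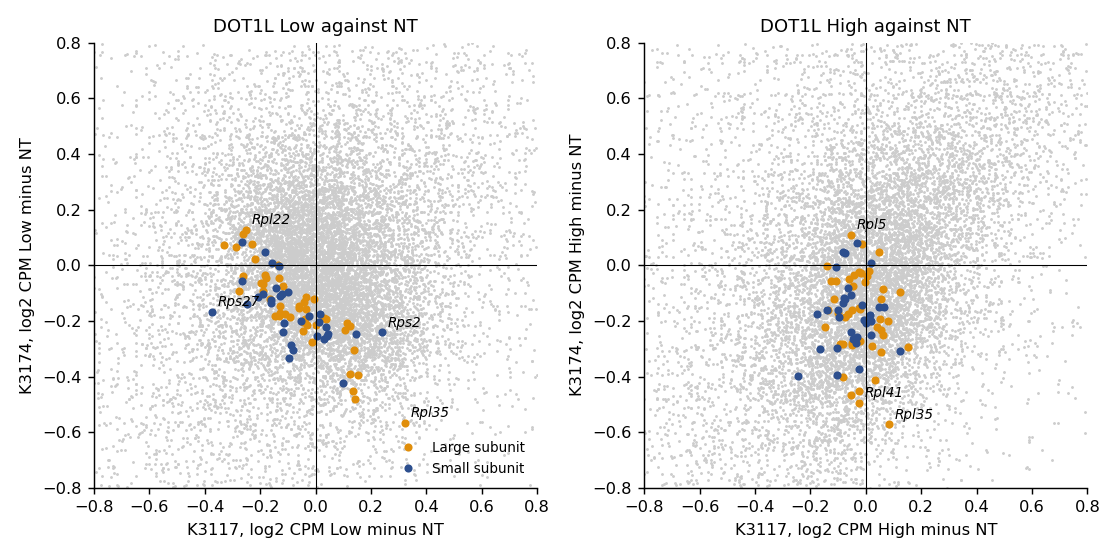
Each point is a gene, with its log2 CPM difference from NT in K3117 on the horizontal axis and in K3174 on the vertical axis, for Low (left) and High (right). Members with at least 10 CPM are coloured by subunit over all other tested genes in grey, and genes beyond 0.8 are not drawn. In Low the members lie along a falling line (Pearson -0.79), and in High they form a vertical band near 0 in K3117.

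GC content of the transcript followed the same split. Over the 78 members the GC content of the principal mRNA had a median of 51.8%, from 41.3% in Rps20 to 60.8% in Rpl36. Rpl35 had 56.7% and Rps2 55.9%, against 42.7% for Rpl5 and 49.2% for Rpl22, but Rpl34, at 54.3%, stood outside this order. The correlation of GC content with Low minus NT was 0.46 in K3117 (Spearman 0.47) and -0.41 in K3174 (Spearman -0.46). Over the 8738 other genes it was 0.36 in K3117 (Spearman 0.50) and -0.32 in K3174 (Spearman -0.46), so members and other genes had the same sign in each leukemia. For High minus NT it was 0.35 in K3117 and -0.43 in K3174 over the members, and 0.05 and -0.16 over the other genes. The 39 members above the median GC content had a median High minus NT of -0.02 in K3117 and -0.26 in K3174, and the 39 at or below it had -0.05 and -0.12.

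When a trend on GC content was taken out of each library, a setting chosen after seeing the data, 70 of 80 members were below 1 in High and 79 of 80 in Low, with medians of -0.09 and -0.11. The relation to GC content had opposite signs in K3117 and K3174, so its parts can offset each other in a fit over both. Whether GC content has a part in the low position of the group was not tested.

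**Figure D4:**
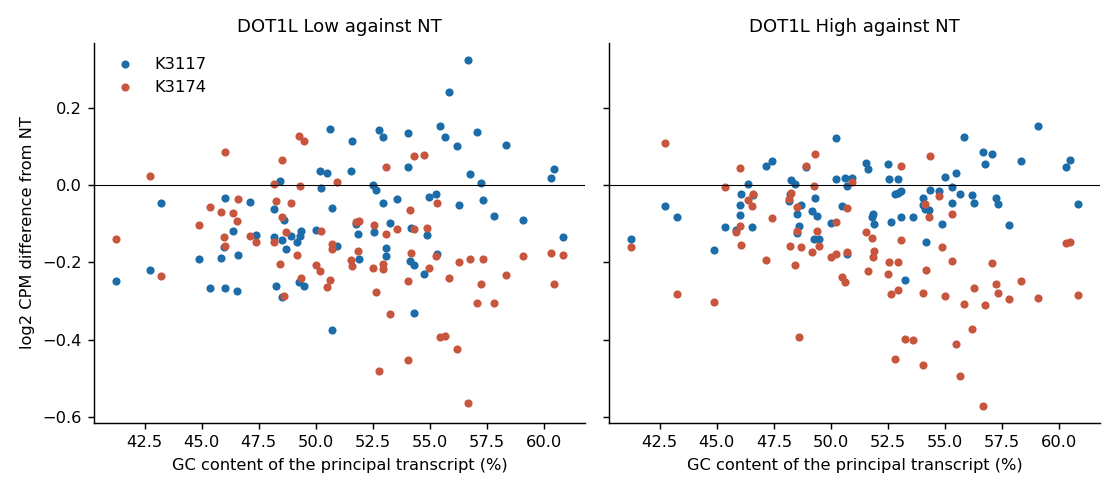
GC content of each member's principal transcript (horizontal axis, percent) against its log2 CPM difference from NT (vertical axis) for Low (left) and High (right), with 78 members in each leukemia. Points of K3117 climb and points of K3174 descend with GC content, with correlations of 0.46 and -0.41 in Low and 0.35 and -0.43 in High.

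How closely members followed each other across the 6 libraries varied widely, and no such value was made for other genes. The correlation of a member's log2 CPM with the median of the other members was highest for Rps6 (0.97), the substrate of the S6 kinases, and for Rps28, Rpl14, Rpl21 and Rps15 (0.95 to 0.96). It was lowest for Rpl5 (-0.02), Rps27a (0.05), Rps12 (0.12), Rpl9 (0.13) and Rpl22 (0.15). These values over 6 libraries are a description, and the genes were picked after their values were seen. Among members with at least 10 CPM the SD of log2 CPM over the libraries was largest for Rpl35 (0.235) and Rpl41 (0.187), with Rpl18 (0.183) among the next, and smallest for Rpl4 (0.046), Rps27a (0.053), Rpl6 (0.054) and Rpl23 (0.055).

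The stalk and its partners recruit the translation factors, and Rpl5 and Rpl11 carry the 5S RNA and bind MDM2 when ribosome assembly fails. Rplp0, the stalk base, was at 2380, 2594 and 2405 CPM in K3117 NT, Low and High and at 2702, 2324 and 2352 CPM in K3174. Rpl5 was at 1083, 930.2 and 1044 CPM in K3117 and 1002, 1019 and 1081 CPM in K3174, and its partner Rpl11 at 723.0, 699.7 and 713.0 CPM and 752.7, 653.8 and 623.9 CPM. In Rpl5 the groups overlap, and in Rpl11 both High libraries lie below both NT libraries. The log2 fold changes of High against NT were 0.03 ± 0.12 for Rpl5, -0.15 ± 0.12 for Rpl11, -0.10 ± 0.13 for Rplp0, -0.16 ± 0.12 for Rplp1, -0.13 ± 0.12 for Rplp2 and -0.09 ± 0.13 for Rpl12, and none passed (adjusted p of at least 0.43). Fau, fused to a ubiquitin-like protein, gave -0.04 ± 0.12.

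Paralogs with restricted or regulated use were at very different levels. Rps27l, a paralog of Rps27 known as a p53 target, was at 209.7, 183.8 and 186.8 CPM in K3117 and 198.4, 184.5 and 160.9 CPM in K3174 (High against NT -0.23 ± 0.12, adjusted p = 0.21). Rpl36al, at 204.8, 203.9 and 222.8 CPM in K3117 and 210.2, 193.4 and 196.6 CPM in K3174, gave 0.01 ± 0.12. Rpl39l, a testis paralog, had 1 to 5 counts per library, and Rpl10l, also of testis, was at 0 in all 6 libraries. The 6 ribosomal proteins whose symbols fall outside the rule did not pass either. High against NT was -0.04 for Rps3a1, -0.08 for Rack1, -0.13 for Rpl22l1, 0.00 for Rpl7l1 and -0.25 for Rps27rt.

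Per kilobase of principal mRNA, levels spanned a wide range. The highest were Rplp1 (2286 CPM per kb), Rplp0 (1811), Rps2 (1702), Rps18 (1644) and Rpl4 (1421), as means over the 6 libraries. The lowest detected were Rpl39l (0.112), Rpl24 (0.887), Rpl3l (1.28), Rpl13a (28.8) and Rpl23a (66.9). Rpl24, Rpl13a and Rpl23a also had reads on pseudogenes of similar sequence (5256, 6476 and 7882 counts). Whether such reads account for their low values was not tested. Pseudogenes matched by sequence to Rpl24 held 98.0% of the combined counts (107 counts on Rpl24 itself), those of Rpl13a 55.4% and those of Rpl23a 54.8%, so the levels of these genes are uncertain. In all, 22 members had more than 10% of combined counts on pseudogenes. Adding those counts to the members changed no call of a member. Further, 15 members overlap a protein-coding gene with counts on the opposite strand, among them Rpl35 with Arpc5l, Rpl28 with Ube2s and Rps18 with Vps52, and whether counting used strand is not given in the sources used here.

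Between the leukemias no member was called in K3174 against K3117 (background 9.37%), with 1, Rpl3l, at an unadjusted p under 0.05 and none by DESeq2. The median was -0.04, and 66 of 80 members were lower in K3174, against 49.9% of all genes. With 1 library left out this number was from 45, without either High library, to 62. The summed CPM of the 82 members was higher in K3174 in NT (58527 against 56607) and lower in Low and High. Rpl3l had a fold of 0.501 (adjusted p = 0.18). Among members with at least 10 CPM the lowest were Rpl13a (-0.22), Rpl17 (-0.18), Rpl41 (-0.13), Rpl28 (-0.13) and Rpl27a (-0.12), and the highest Rpl12 (0.05), Rpl38 (0.04), Rpl23a (0.03), Rpl9 (0.02) and Rps29 (0.02). In all 3 labels, 11 members were lower in K3174, against 20.9%. Rpl13a had all 3 K3174 libraries below all 3 K3117 libraries, the 1 member of 80 that did, against 8.83% of all genes. The gap was narrow, from 31.4 CPM in K3117 High to 31.2 CPM in K3174 NT. With 55.4% of its combined counts on pseudogenes, this separation is uncertain.

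Other genes known to be under the same control were mostly below NT in High as well, and none of them passed in edgeR's test. Of 18 other TOP mRNAs for elongation and translation, none was called in High against NT (4 at an unadjusted p under 0.05), against 17.3% of all genes. Their median was -0.16 and 16 were below 0, against 51.4% of all genes. Eif4b, a cofactor of the eIF4A helicase, had the smallest p of them and was called by DESeq2 (adjusted p = 0.037). It was at 820.2, 764.3 and 690.4 CPM in K3117 NT, Low and High and at 871.9, 718.7 and 635.1 CPM in K3174, in the order NT over Low over High in both (-0.35 ± 0.12, adjusted p = 0.066). Eef1g (-0.35 ± 0.13, adjusted p = 0.096), Npm1, a nucleolar chaperone (-0.34 ± 0.13, adjusted p = 0.12), and Hnrnpa1 (-0.27 ± 0.12, adjusted p = 0.17) followed. Of 8 snoRNA host genes with TOP starts, 7 were tested, with a median of -0.15 and none called (none at an unadjusted p under 0.05). The smallest p were those of Snhg1 (-0.25 ± 0.12, adjusted p = 0.20), Gas5 (-0.19 ± 0.11, adjusted p = 0.32), Snhg12 (-0.25 ± 0.18, adjusted p = 0.41) and Snhg5 (-0.15 ± 0.13, adjusted p = 0.50).

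In the list of mTORC1 and LARP1 genes, 2 of 15 fell in High against NT and none rose, where 7.32% of all genes fell and 10% rose, so the count is near the background. Deptor, an inhibitor within mTOR complexes, was at 14.7, 10.3 and 7.42 CPM in K3117 NT, Low and High and at 12.4, 11.0 and 5.25 CPM in K3174. Both High libraries were the lowest (-1.11 ± 0.20, adjusted p = 0.0024, and 0.070 without the block). Eif4ebp1, the translation repressor that mTORC1 phosphorylates, was at 78.4, 83.5 and 63.6 CPM and 96.5, 68.3 and 60.8 CPM (-0.49 ± 0.15, adjusted p = 0.038). It missed the threshold without the K3174 NT library (-0.24, adjusted p = 0.26), without either High library (K3117 0.081, K3174 0.21) or without the block (0.15). Akt1s1 (-0.36 ± 0.15, adjusted p = 0.13) and Tsc2 (0.21 ± 0.12, adjusted p = 0.27) did not pass, and Mtor gave -0.12 and Larp1 -0.01.

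Among 9 tested chaperones and assembly helpers of ribosomal proteins, 2 fell and 1 rose in High against NT, few genes to set against the 7.32% and 10% of all genes that did. Grwd1, the chaperone of Rpl3, was at 52.0, 52.6 and 42.7 CPM in K3117 and 73.5, 49.3 and 36.4 CPM in K3174 (-0.66 ± 0.17, adjusted p = 0.019). Tsr2, the chaperone of Rps26, was at 34.2, 35.8 and 28.0 CPM and 38.5, 33.1 and 24.7 CPM (-0.47 ± 0.14, adjusted p = 0.043). Mdm2, the p53 ligase held by Rpl5 and Rpl11, was at 84.1, 78.7 and 96.9 CPM and 75.2, 95.8 and 124.3 CPM (0.46 ± 0.14, adjusted p = 0.045). For all 3, High lay on 1 side of NT in both leukemias. All 3 missed the threshold when the K3174 NT library was left out (adjusted p = 0.13, 0.20 and 0.27), without the K3174 High library (0.27, 0.46 and 0.48) or without the block (0.12, 0.13 and 0.19). Tsr2 also missed it without the K3117 High library (0.087) or either Low library (0.066 and 0.072), and Mdm2 with library sizes alone (0.087) or upper quartile factors (0.10). Heatr3, which brings Rpl5 to the nucleus, gave -0.30 ± 0.12 (adjusted p = 0.14).

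**Figure D5:**
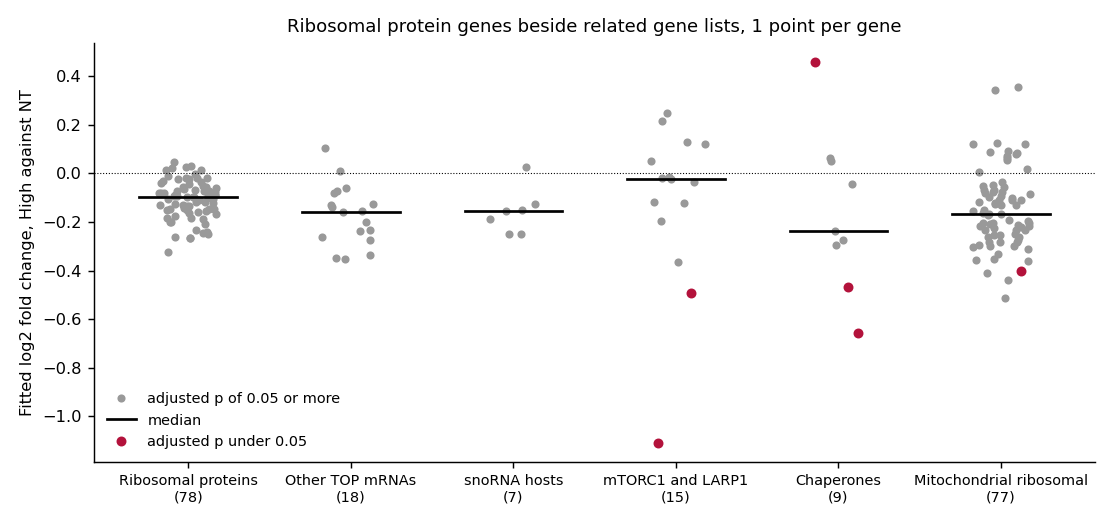
Fitted log2 fold change of High against NT for the 78 members with at least 10 CPM and for related lists, with 1 point per gene, the median as a bar and called genes in red. Ribosomal proteins lie in a narrow band near -0.10, mitochondrial ribosomal proteins spread wider around -0.17, and called genes are Deptor, Eif4ebp1, Grwd1, Tsr2, Mdm2 and Mrpl16.

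Mitochondrial ribosomal proteins, which are made in the cytosol and build the ribosome of mitochondria, were compared with the members. Of 77 tested, 63 were below 0 in High against NT, against 51.4% of all genes. Their median was -0.17, with -0.01 in K3117 and -0.33 in K3174. The members showed the same order, with -0.04 in K3117 and -0.17 in K3174. Mrpl16 was the 1 called (-0.40 ± 0.13, adjusted p = 0.049, and 0.057 by DESeq2), where 17.3% of all genes were called. It was at 56.8, 46.8 and 45.5 CPM in K3117 and 51.2, 41.0 and 36.7 CPM in K3174, and its adjusted p rose to 0.22 without the block and to between 0.088 and 0.49 when any library but K3117 NT was left out. Mrps27 (-0.44 ± 0.14, adjusted p = 0.054), Mrpl52 (-0.51 ± 0.17, adjusted p = 0.063) and Mrpl19 (0.34 ± 0.12, adjusted p = 0.073) did not pass. Mitochondrially encoded genes took 1.45%, 1.41% and 1.41% of counts in K3117 NT, Low and High, and 1.17%, 1.60% and 1.70% in K3174, and their part in the ribosomal protein values was not tested.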

How the data were processed

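RNA-seq was made from 6 libraries, 1 for each of NT, DOT1L Low and DOT1L High in K3117 and K3174. The deposited table holds raw counts per gene, whole numbers for 49585 gene IDs (23286 of them at 0 in all libraries). The submitters' processing notes name kallisto, STAR, STAR-Fusion, DESeq2 and the mm10 build, without roles. Which of them made the counts, the annotation version and the strand setting is not given here by any source. Gene symbols and positions came from GENCODE annotation on GRCm38 (259 IDs had no symbol), and all sample columns were used (0 left out).

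Counts were fitted with edgeR 4.0.16 in R 4.3.3 (TMM, filterByExpr, quasi-likelihood test, all 6 libraries, label plus leukemia), with Benjamini-Hochberg adjustment over 15812 genes. The common biological coefficient of variation was 12.0%, with 2 residual and 9.38 prior degrees of freedom. Log2 CPM used a prior count of 2. DESeq2 1.42.0 was an alternative. The K number pairs libraries: deviations from the label means correlated at 0.57 (NT and Low), 0.44 (NT and High) and 0.64 (Low and High). No 2 libraries agreed within counting noise (chi-square per degree of freedom at least 24.2). Pseudogenes were matched with blastn 2.17.0 (at least 85% identity over 200 bases). The same fit was run on simulated counts with known fold changes. These had the same dispersion for all genes and no leukemia effect, so that run is no check of the values reported here.

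Members and lists were chosen with earlier results of these data known. Named members were those called, the 5 highest and 5 lowest by fold change in each comparison with NT and between leukemias (at least 10 CPM), by level per kb, the 4 most and least variable, and the listed stalk, ubiquitin-fused and paralog genes. From other lists the 4 genes with the smallest p in High against NT were named. The alternatives were other scalings, filters, the block, pseudogene counts, and each library left out. Removing a GC content trend and adding pseudogenes by sequence were chosen after seeing the data. Values of some genes that the rule would name are not reported here.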

Additional observations from a re-analysis of the deposited data

Results flagged for a closer look

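Some members lay on opposite sides of NT in the 2 leukemias, with 1 library per label in each, and the difference between leukemias was not tested for any of them. In log2 CPM of High minus NT, Rpl35 was at 0.085 in K3117 and -0.57 in K3174, and Rpl36al at 0.12 and -0.096. Rpl5 was at -0.053 in K3117 and 0.11 in K3174, Rps27a at -0.032 and 0.079, and Rpl34 at -0.013 and 0.075. In Low minus NT, Rps2 was at 0.24 in K3117 and -0.24 in K3174, Rpsa at 0.15 and -0.25, Rplp0 at 0.12 and -0.22, and Rpl12 at 0.11 and -0.21. Rpl22 was the reverse, at -0.25 in K3117 and 0.13 in K3174.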

How the results depend on the processing

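The members called in High against NT (1) were 2 with library sizes alone or upper quartile factors, 0 with a filter of 5 CPM or no replicate block, and 0 to 8 with 1 library left out. The average of both DOT1L labels against NT (1) gave 2 with upper quartile factors or a GC content trend removed, 0 with the 5 CPM filter or no replicate block, and 1 to 8 with 1 left out. Low against NT (0) gave 1 with no filter and 0 to 3 with 1 left out, and K3174 against K3117 (0) gave 1 with no filter and 0 to 2. The upper counts in the first 3 came without the K3117 NT library, where calls over all genes were also the most numerous in these comparisons.

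Over all genes, High against NT called 2741 (493 with no replicate block, 1927 to 4394 with 1 library left out), Low against NT 528 (1071 with no filter, 0 with no block, 144 to 1483), and High against Low 866 (1425, 568 with 5 CPM, 0 with no block, 335 to 1982). The mean called 1979 (89 with no block, 1417 to 3302), and K3174 against K3117 1481 (932 with 5 CPM, 90 with the label left out, 829 to 2642). The members below 1 in High against Low were 33, but 52 with library sizes, 59 with upper quartile factors and 17 to 57 with 1 left out. The member median in Low ranged from -0.17 to -0.084 with 1 left out, and that in High from -0.17 to -0.051. With library sizes and upper quartile factors it was -0.15 and -0.19 in High, where the median of all genes was -0.070 and -0.11. Members below 1 numbered 57 to 76 in High and 55 to 80 in Low with 1 left out, fewest without K3174 NT.

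With library sizes and upper quartile factors, High against NT turned to -0.010 and -0.047 for Rpl9, -0.030 and -0.067 for Rpl34, -0.031 and -0.069 for Rpl5, -0.035 and -0.072 for Rps27a, and -0.044 and -0.082 for Rpl36al. Rpl5 was at -0.031 with the GC trend removed. Rps2 in Low was at 0.011 with no filter and 0.018 with the GC trend removed. With 1 library left out, High against NT ranged from -0.089 to 0.16 for Rpl34, -0.07 to 0.13 for Rpl5, -0.035 to 0.082 for Rps27a, -0.078 to 0.10 for Rpl36al and -0.63 to 0.15 for Rpl35. Low against NT ranged from -0.22 to 0.23 for Rps2, -0.18 to 0.10 for Rplp0, -0.19 to 0.10 for Rpl12, -0.21 to 0.12 for Rpsa and -0.21 to 0.11 for Rpl22. K3174 against K3117 ranged from -0.042 to 0.12 for Rpl12, -0.046 to 0.18 for Rpl38, -0.11 to 0.10 for Rpl23a, -0.011 to 0.049 for Rpl9 and -0.018 to 0.077 for Rps29. The cause was not tested. A label left with 1 library is assumed to vary like the others. Each label has 2 libraries, and whether their number or depth limits the calls was not tested.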
